A study of Homo sapiens with 8 samples.

Results

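The genes described here are CIITA and 8 genes of the MHC class II pathway: CD74, HLA-DRA, HLA-DRB1, HLA-DPA1, HLA-DPB1, HLA-DMA, HLA-DMB and HLA-DQB1. They were taken by symbol, and all 9 were found among the 16726 genes measured. Poly(A) RNA was sequenced in 8 libraries, 2 in each of 4 groups. These were MM6 cells (MonoMac 6) with the METTL14 hairpin shM14, MM6 cells with the non-specific hairpin shNS, NB4 cells with shM14 and NB4 cells with shNS. Hairpins came from pLKO.1 lentivirus, and every group was selected in 0.5 µg/mL puromycin for 2 passages, so the controls carry a hairpin vector and the selection as well. A single METTL14 hairpin, labelled shM14-#2, was sequenced. The labels do not say whether the 2 libraries of a group came from separate cultures, so p-values reflect no more than the spread between the sequenced libraries. The labels call both lines acute monocytic leukemia; NB4 is generally known as a promyelocytic line.

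MHC class II molecules are pairs of an alpha and a beta chain that present peptides from the endosome to CD4+ T cells. CD74, the invariant chain, fills the groove of new molecules, and HLA-DM, made of HLA-DMA and HLA-DMB, later exchanges its remnant for peptide. The genes are switched on together by CIITA, a coactivator that binds no DNA itself and docks on RFX, CREB and NF-Y proteins at the X and Y boxes of class II promoters. In myeloid cells class II is typical of monocytes and dendritic cells and weak in promyelocytes. METTL14 is a subunit of the methyltransferase that writes N6-methyladenosine in mRNA.

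The X and Y boxes are where the shared regulator acts, so the promoters of the members that carry their letters are shown first. RefSeq (GRCh38.p14) gave a promoter for 7 of the 9 genes; CIITA and HLA-DRA were not in the table used. Each line runs 5′ to 3′ on the gene's strand from position -150 to -11 before the RefSeq start. Capitals mark ACNGATG, the core of the X box searched here, and ATTGG or its reverse complement CCAAT, the core of the Y box. Both strands were searched, the letters were chosen with class II promoters in mind, and no 2 matches overlapped.
HLA-DRB1 (GRCh38.p14, chr6:32589859-32589998, minus strand): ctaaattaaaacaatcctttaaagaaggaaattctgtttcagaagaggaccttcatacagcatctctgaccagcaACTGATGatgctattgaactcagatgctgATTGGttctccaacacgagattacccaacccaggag
HLA-DQB1 (GRCh38.p14, chr6:32666668-32666807, minus strand): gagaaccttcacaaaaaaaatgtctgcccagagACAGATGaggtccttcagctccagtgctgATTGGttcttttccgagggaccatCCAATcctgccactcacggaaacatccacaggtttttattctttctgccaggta
HLA-DMA (GRCh38.p14, chr6:32953108-32953247, minus strand): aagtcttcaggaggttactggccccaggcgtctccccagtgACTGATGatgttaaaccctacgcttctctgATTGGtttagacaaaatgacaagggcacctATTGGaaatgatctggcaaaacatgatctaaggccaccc
HLA-DMB (GRCh38.p14, chr6:32941039-32941178, minus strand): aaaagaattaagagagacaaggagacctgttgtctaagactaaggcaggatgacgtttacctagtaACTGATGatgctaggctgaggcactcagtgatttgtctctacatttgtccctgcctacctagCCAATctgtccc
HLA-DPB1 (GRCh38.p14, chr6:33075840-33075979, plus strand): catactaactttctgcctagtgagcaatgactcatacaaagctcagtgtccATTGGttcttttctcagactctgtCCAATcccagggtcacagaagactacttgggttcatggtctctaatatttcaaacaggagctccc
CD74 (GRCh38.p14, chr5:150412921-150413060, minus strand): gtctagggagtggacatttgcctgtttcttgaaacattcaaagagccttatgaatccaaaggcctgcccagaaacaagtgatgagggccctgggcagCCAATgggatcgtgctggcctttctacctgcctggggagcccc

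In HLA-DRB1 the X letters began at -75 and a Y at -46. In HLA-DQB1 the X began at -117 and a Y at -88, and in HLA-DMA the X began at -109 and a Y at -79. These 3 promoters hold ACNGATG followed by ATTGG with 26 to 32 bases between their starts, an arrangement found in 20 of 35116 RefSeq promoters (0.057%), 4 of which belong to class II genes; each promoter searched ran from 250 bases before the start to 50 after it. HLA-DMB held the X at -84 with a CCAAT at -22. HLA-DPB1 (ATTGG at -99, CCAAT at -75) and CD74 (CCAAT at -53) held Y letters without X in the stretch shown. HLA-DPA1 is listed with several starts, and its stretches held neither. Over all promoters, 7.65% held X and 34.6% held Y. A match is a description of the letters, not of binding.

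Depth was 23272126 to 28814911 reads over the listed genes per library. METTL14 checked the labels. It had 6.54 and 6.55 RPKM in MM6 shM14 against 12.5 and 13.4 RPKM in MM6 shNS, and 8.35 and 8.35 RPKM in NB4 shM14 against 14.1 and 12.5 RPKM in NB4 shNS. RPKM is reads per kilobase of gene model and per 1000000 reads assigned to genes. The authors' deposited table gives METTL14 an adjusted p of 0.0049 in MM6 and 1.7e-16 in NB4. Replicates lay further apart in MM6 than in NB4: the SD across genes of the log2 difference between the 2 libraries of a group was 0.357 for MM6 shM14, 0.341 for MM6 shNS, 0.119 for NB4 shM14 and 0.146 for NB4 shNS. The 9 monocytic markers summed to 16300 and 26300 RPKM in the MM6 shM14 libraries and to 10300 and 15600 RPKM in the MM6 shNS libraries, with FCN1 at 0 in MM6 shNS, against 125 to 127 RPKM in NB4 shM14 and 49.1 to 52.9 RPKM in NB4 shNS. The 6 promyelocytic markers summed to 4640 to 5020 RPKM in MM6 shM14, 4370 to 4550 RPKM in MM6 shNS, 2330 to 2370 RPKM in NB4 shM14 and 2580 to 2690 RPKM in NB4 shNS.

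The first question is how much of the class II pathway each line expressed without the METTL14 hairpin. All 9 genes were far more abundant in MM6 shNS than in NB4 shNS, and 6 of them had fewer than 6 reads in the NB4 shNS libraries in all. CIITA, the regulator, had 4.69 and 4.54 RPKM in MM6 shNS (552 and 585 reads) against 0.112 and 0.112 RPKM in NB4 shNS (13 and 16 reads). By reads per 1000000 it is 41.0 times higher in MM6 (95% exact interval 28.4 to 61.6, which like all intervals here covers counting error only). CIITA message was thus low in NB4 but had reads in both control libraries. Of the 50-base windows of its listed transcript, 15.2% also occur in another gene, most often AC133065.3, CHP1 and PADI4. Whether these windows lie in the sequence that was counted was not tested, so these few reads may be less certain.

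Among the structural chains the contrast was larger. HLA-DRA, the nearly invariant DR alpha chain, had 7082 and 7583 reads in MM6 shNS against 2 and 3 reads in NB4 shNS, a ratio of 3070 (1320 to 9460). HLA-DRB1, its beta chain, had 1666 and 1917 reads in MM6 shNS and was listed at 0 in both NB4 shNS libraries. The DP chains were also at 0 in both NB4 shNS libraries, where HLA-DPA1 had 184 and 326 reads and HLA-DPB1 had 205 and 287 reads in MM6 shNS. Against a floor of 3 reads over the NB4 shNS group, HLA-DRB1 was at least 1250-fold, HLA-DPA1 at least 178-fold and HLA-DPB1 at least 172-fold higher in MM6. HLA-DQB1, the DQ beta chain, had 17 and 26 reads in MM6 shNS and 1 and 1 reads in NB4 shNS, a ratio of 22.5 (5.86 to 192). HLA-DQB1 was therefore the scarcest of the 9 genes by reads in MM6 shNS.

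The accessory genes differed from the chains in NB4. CD74 had 345 and 286 RPKM in MM6 shNS against 5.06 and 4.91 RPKM in NB4 shNS, 63.2 times higher in MM6 (57.5 to 69.6), and with 199 and 238 reads it was the most abundant of the 9 in NB4. HLA-DMA, the DM alpha chain, had 2.77 and 3.03 RPKM in MM6 shNS against 0.123 and 0.166 RPKM in NB4 shNS (26 and 43 reads), 19.8 times higher in MM6 (15.5 to 25.6). HLA-DMB, its beta partner, had 268 and 229 reads in MM6 shNS and 0 and 2 reads in NB4 shNS, a ratio of 260 (71.6 to 2150). NB4 cells thus held reads of CIITA, CD74 and HLA-DMA and next to none of the DR, DP and DQ chains or of HLA-DMB.

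The fit was limma on log2(RPKM + 1) over genes that reached an RPKM of 1 in 2 or more libraries, with Benjamini-Hochberg adjustment over all genes tested and a threshold of 0.05. In that fit 5 of the 9 genes were tested between the controls, and all 5 were higher in MM6. Only CD74 reached an RPKM of 1 in NB4 shNS. CIITA, HLA-DRA, HLA-DRB1 and HLA-DMA passed the filter through MM6 shNS alone, which fixed their direction in advance. Of all genes tested, 34.3% were higher in MM6 and 71.1% differed in either direction. The log2 changes, MM6 minus NB4, were 5.72 ± 0.12 (SE) for CD74, 5.06 ± 0.08 for HLA-DRA, 3.40 ± 0.09 for HLA-DRB1, 2.34 ± 0.08 for CIITA and 1.77 ± 0.09 for HLA-DMA, and the largest adjusted p of these was 8.8e-05. The pseudocount shrinks these values for genes of low RPKM. The other 4 genes did not reach the RPKM filter.

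**Figure D1:**
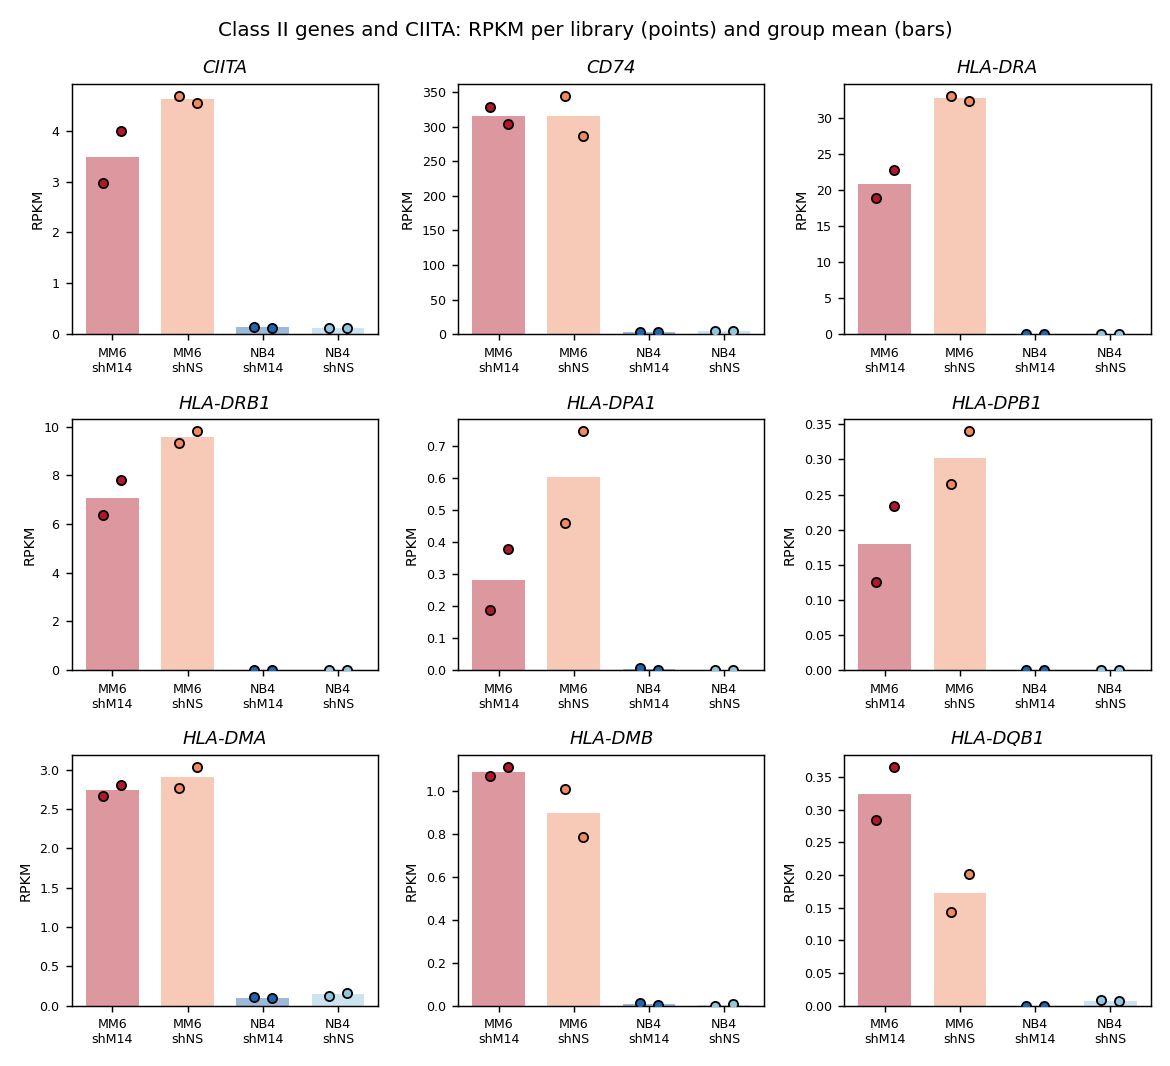
RPKM of the 9 genes in each library (points, 2 per group) with the group mean (bars), for MM6 shM14, MM6 shNS, NB4 shM14 and NB4 shNS. Each panel has its own linear axis from 0. In MM6 both shM14 points lie below both shNS points for CIITA, HLA-DRA, HLA-DRB1, HLA-DPA1 and HLA-DPB1, and above them for HLA-DMB and HLA-DQB1.

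The scale of the deposited RPKM bears on these levels. The gene length behind each RPKM was recovered from the values and set beside the principal transcript of GENCODE release 29. For HLA-DRA the length was 8.97 kb against a transcript of 1.28 kb, 7.01 times longer. The ratio was 6.11 for HLA-DRB1, 8.01 for HLA-DMA, 8.0 for HLA-DMB, 9.87 for HLA-DPA1, 20.8 for HLA-DPB1, 2.85 for HLA-DQB1 and 1.71 for CD74. CIITA went the other way, 4.94 kb against a listed transcript of 16.1 kb. Over 13778 genes the median ratio was 1.02, the 5th and 95th percentiles were 0.56 and 2.31, and 1.84% of genes exceeded 4. For the HLA genes among the 9, a deposited RPKM is thus smaller than one per kilobase of transcript would be. HLA-DPA1 and HLA-DPB1, under the filter in MM6, would have passed it per kilobase of transcript. HLA-DQB1 would not, with 0.809 and 1.04 in MM6 shM14 and 0.411 and 0.575 in MM6 shNS on that scale. Why the lengths differ was not tested.

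**Figure D2:**
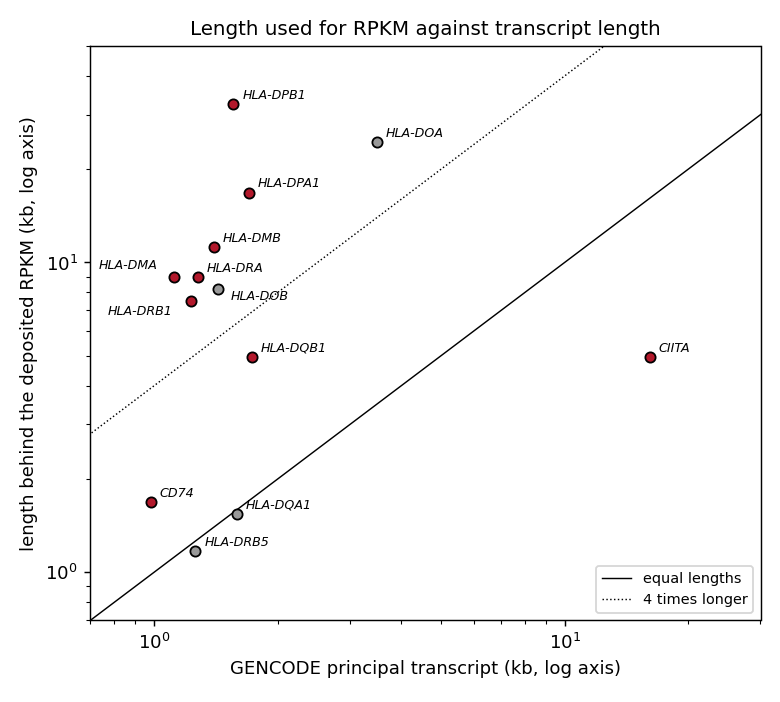
Length behind the deposited RPKM (vertical, kb, log axis) against the GENCODE principal transcript (horizontal, kb, log axis) for the 9 genes (red) and the other class II genes with a transcript (grey). The solid line marks equal lengths and the dotted line 4 times longer; 6 of the 9 genes lie above the dotted line.

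Rescaled per kilobase of GENCODE transcript and 1000000 reads, levels in MM6 shNS were ordered CD74 (541 ± 71.5, SD, n = 2), HLA-DRA (230 ± 3.42), HLA-DRB1 (58.4 ± 2.1), HLA-DMA (23.2 ± 1.49), HLA-DMB (7.17 ± 1.24), HLA-DPB1 (6.29 ± 1.09), HLA-DPA1 (5.94 ± 1.99), CIITA (1.42 ± 0.0315) and HLA-DQB1 (0.493 ± 0.116). The libraries of HLA-DMB, HLA-DPB1 and HLA-DPA1 overlapped, so these 3 neighbours do not differ beyond their spread. On the deposited scale CIITA, at 4.62 ± 0.102 RPKM in MM6 shNS, would rank above HLA-DMA, at 2.90 ± 0.186 RPKM, so its place depends on the length used. In both scales CD74 message exceeded that of every chain.

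The second question is how the pathway stood in MM6 cells with the METTL14 hairpin. In these libraries CIITA and the DR and DP chains were lower with shM14, CD74 and HLA-DMA overlapped between groups, and HLA-DMB and HLA-DQB1 were higher. None of these differences passed the threshold within MM6: 0 of the 6 genes tested were called, where 0.0757% of all genes were called. At an unadjusted p under 0.05, 2 of the 6 passed (HLA-DRA and HLA-DRB1), as did 1779 of the 11895 genes tested in MM6. In bulk RNA, fewer cells expressing a gene and less RNA per cell cannot be told apart.

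CIITA had 2.97 and 4.0 RPKM in MM6 shM14 against 4.69 and 4.54 RPKM in MM6 shNS. The groups did not overlap, and the mean with shM14 differed by -24.5%. The log2 change was -0.33 ± 0.16 (limma, adjusted p = 0.42). It was -0.17 without MM6 shM14 replicate 1 and -0.50 without MM6 shM14 replicate 2.

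HLA-DRA had 18.9 and 22.8 RPKM in MM6 shM14 against 33.1 and 32.4 RPKM in MM6 shNS, so both shM14 libraries were well below both controls. The log2 change was -0.64 ± 0.15 (limma, adjusted p = 0.17), the most negative value among the 6 genes tested. HLA-DRA passed in a model with 1 spread per gene over all 8 libraries, with the same change and an adjusted p of 0.013 (11.1% of all genes were called there in MM6). It also passed in limma with the replicate number as a block (adjusted p = 0.027, with 11.8% of all genes called). HLA-DRB1 had 6.35 and 7.79 RPKM in MM6 shM14 against 9.31 and 9.80 RPKM in MM6 shNS, again without overlap, and a log2 change of -0.39 ± 0.15 (limma, adjusted p = 0.32). Of the 50-base windows of its transcript, 9.92% also occur in another gene, most often HLA-DRB5, HLA-DRB6 and HLA-DPB1, so some reads may be shared. HLA-DRA shared none.

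The DP chains had too low an RPKM for the filter and are given by reads. HLA-DPA1 had 90 and 147 reads in MM6 shM14 against 184 and 326 reads in MM6 shNS (0.188 and 0.376 against 0.459 and 0.744 RPKM). HLA-DPB1 had 117 and 177 reads in MM6 shM14 against 205 and 287 reads in MM6 shNS (0.126 and 0.234 against 0.265 and 0.340 RPKM). For both, the higher shM14 library lay just below the lower shNS library. Mean RPKM in MM6 shM14 differed from that in MM6 shNS by -53.2% for HLA-DPA1 and by -40.3% for HLA-DPB1.

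CD74 had 328 and 304 RPKM in MM6 shM14 against 345 and 286 RPKM in MM6 shNS. The groups interleaved and the means were 316 ± 17.1 RPKM in MM6 shM14 and 316 ± 41.7 RPKM in MM6 shNS (n = 2 each). The log2 change was 0.01 ± 0.15 (limma, adjusted p = 0.99). HLA-DMA, with 2.67 and 2.81 RPKM in MM6 shM14 and 2.77 and 3.03 RPKM in MM6 shNS, overlapped too (log2 change -0.06 ± 0.13, adjusted p = 0.90). A p that misses the threshold does not show that these levels were equal.

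HLA-DMB ran the other way, with 1.07 and 1.11 RPKM in MM6 shM14 against 1.01 and 0.786 RPKM in MM6 shNS, and a log2 change of 0.14 ± 0.14 (limma, adjusted p = 0.72). In its transcript 29% of the 50-base windows, and in that of HLA-DMA 11.6%, also lie in an overlapping annotated gene, so these values are less certain. HLA-DQB1 had 40 and 42 reads in MM6 shM14 against 17 and 26 reads in MM6 shNS (0.284 and 0.365 against 0.144 and 0.202 RPKM). Among the 5 DR, DP and DQ genes of the 9 it was the only one whose shM14 libraries both lay above the controls, at 1.87 times their mean RPKM.

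Counted over all 9 genes, 5 had both MM6 shM14 libraries below both MM6 shNS libraries, 2 had both above, and 2 overlapped. Over all genes with at least 10 reads in 2 MM6 libraries the shares were 25.5% below and 19.1% above. The 4 B cell markers measured, another cell type that expresses class II, summed to 4.15 and 4.49 RPKM in MM6 shM14 and to 6.06 and 6.25 RPKM in MM6 shNS, with 2 of the 4 under 1 RPKM. The 3 dendritic cell markers measured summed to 3.43 and 3.74 RPKM in MM6 shM14 and to 3.55 and 4.23 RPKM in MM6 shNS, with CLEC10A at 0 in MM6 shM14. Both sums were higher in NB4. There the B cell markers summed to 10.2 to 12.4 RPKM with shM14 and 12.2 to 13.3 RPKM with shNS. The dendritic cell markers summed to 12.6 to 13.7 RPKM in NB4 shM14 and 8.61 to 9.7 RPKM in NB4 shNS. The part of these and of the monocytic markers in the class II differences was not tested.

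To test all 9 genes in MM6, whole reads recovered from the deposited values were fitted with limma voom over genes with at least 10 reads in 2 libraries. This was chosen after the values were seen. It called 0 of the 9 genes, against 0.596% of all genes. At an unadjusted p under 0.05 there were 4 of the 9, beside 2234 of the 14764 genes tested. With the replicate number as a block, voom called 4 of the 9 (HLA-DRA, HLA-DPA1, HLA-DRB1 and HLA-DPB1), against 17.6% of all genes. The labels state no pairing of replicates. Without the block the log2 changes were -1.17 ± 0.40 (SE) for HLA-DPA1, -0.82 ± 0.33 for HLA-DPB1, -0.67 ± 0.13 for HLA-DRA, -0.45 ± 0.16 for HLA-DRB1 and -0.43 ± 0.21 for CIITA. HLA-DRA came nearest the threshold, with an adjusted p of 0.088 in this voom fit, and without MM6 shM14 replicate 2 it passed at 0.040. The voom changes were 0.88 ± 0.38 for HLA-DQB1, 0.29 ± 0.22 for HLA-DMB, 0.01 ± 0.13 for CD74 and -0.08 ± 0.17 for HLA-DMA. In the authors' deposited table, where 3.28% of genes had an adjusted p under 0.05 in MM6, the smallest adjusted p among the 9 were 0.11 for HLA-DPA1 and 0.16 for HLA-DRA.

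**Figure D3:**
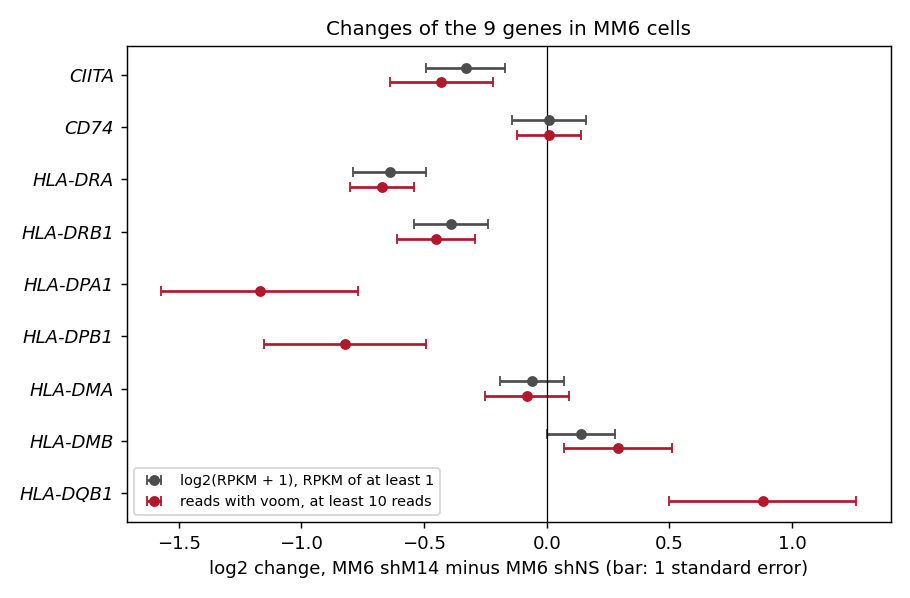
Log2 change of the 9 genes in MM6, shM14 minus shNS, with 1 standard error, from limma on log2(RPKM + 1) (grey, the 6 genes that reached an RPKM of 1) and from voom on recovered reads (red, all 9). CIITA and the DR and DP chains lie left of 0, CD74 and HLA-DMA near 0, and HLA-DMB and HLA-DQB1 right of it. None passed the threshold in either fit, both of which had no replicate block.

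Ratios of reads within a library do not depend on its depth, and they show which members moved apart. HLA-DRA per CD74 was 0.307 and 0.400 in MM6 shM14 against 0.512 and 0.605 in MM6 shNS, so the DR alpha chain was scarcer relative to the invariant chain. HLA-DRA per CIITA was 11.5 and 10.3 in MM6 shM14 against 12.8 and 13 in MM6 shNS, a smaller gap. HLA-DRA per HLA-DRB1, the partners of one molecule, was 3.55 and 3.5 in MM6 shM14 against 4.25 and 3.96 in MM6 shNS.

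HLA-DPA1 per HLA-DPB1 was 0.769 and 0.831 in MM6 shM14 against 0.898 and 1.14 in MM6 shNS. HLA-DMA per HLA-DMB was 2.01 and 2.03 in MM6 shM14 against 2.21 and 3.10 in MM6 shNS. The widest gap of the 7 ratios computed was in HLA-DQB1 per HLA-DRB1, 0.0294 and 0.0308 in MM6 shM14 against 0.0102 and 0.0136 in MM6 shNS. With 2 libraries against 2, an exact permutation test cannot reach 0.05, so no p is given for these ratios.

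**Figure D4:**
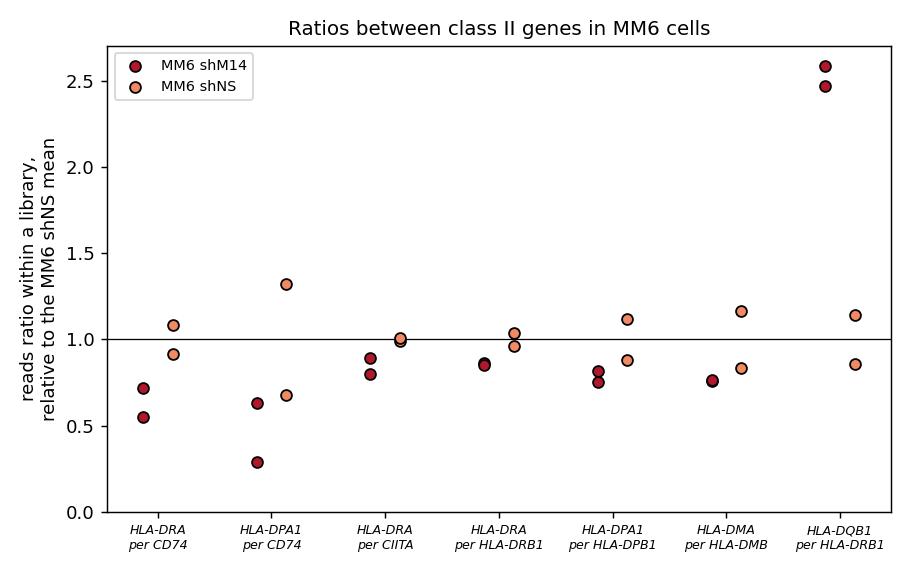
Ratio of reads of one gene per another within each MM6 library (points; shM14 left, shNS right), divided by the mean of the 2 shNS libraries, on a linear axis from 0. The shM14 and shNS points do not overlap for any of the 7 ratios, and HLA-DQB1 per HLA-DRB1 is the only one higher with shM14.

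In NB4 the third comparison rests on few reads. CD74 was the only member that reached the RPKM filter. It had 3.51 and 2.49 RPKM in NB4 shM14 (165 and 104 reads) against 5.06 and 4.91 RPKM in NB4 shNS (199 and 238 reads). Both shM14 libraries lay below the controls, and CD74 fell by 0.59 ± 0.12 on the log2(RPKM + 1) scale (limma, adjusted p = 0.015). This call is 1 of 1 tested, where 47.4% of all genes were called in NB4 and 25.2% were called lower. It was lost without NB4 shNS replicate 1 (adjusted p = 0.066) or replicate 2 (0.057). The authors' deposited table gives CD74 a log2 fold change of -0.69 with an adjusted p of 2.1e-05.

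HLA-DRA, near 0 in the NB4 controls, had 16 and 9 reads in NB4 shM14 against 2 and 3 reads in NB4 shNS. The groups did not overlap, and the ratio by reads per 1000000 was 4.95 (95% exact interval 1.86 to 16.5). It reached neither filter. In limma without a filter on low values its log2(RPKM + 1) change was 0.06 ± 0.04 (adjusted p = 0.33), on a scale that shrinks so low a level. The authors' deposited table lists it with a log2 fold change of 2.28 and an adjusted p of 0.0033, where 43.6% of genes in that table were under 0.05. Even with shM14 its level was 0.0637 and 0.0404 RPKM in NB4, against 18.9 and 22.8 RPKM in MM6 shM14.

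CIITA had 19 and 16 reads in NB4 shM14 against 13 and 16 reads in NB4 shNS, a ratio of 1.19 (0.709 to 2.02). HLA-DMA had 27 and 22 reads in NB4 shM14 against 26 and 43 reads in NB4 shNS, a ratio of 0.702 (0.477 to 1.03). Both intervals include equal levels. HLA-DMB had 4 and 1 reads in NB4 shM14 against 0 and 2 reads in NB4 shNS. HLA-DRB1 had 0 and 1, HLA-DPA1 3 and 0, and HLA-DQB1 0 and 0 reads in NB4 shM14, against 0 and 0, 0 and 0, and 1 and 1 reads in NB4 shNS. HLA-DPB1 was listed at 0 in all 4 NB4 libraries. Differences of these 5 genes were not detectable at this depth.

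Of the 9 genes, 3 had at least 10 reads in 2 or more NB4 libraries. By RPKM, 2 of these (CD74 and HLA-DMA) had both NB4 shM14 libraries below both controls and 1 (CIITA) had both above. Over all NB4 genes with that many reads the shares were 39.4% below and 33.3% above.

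Taking both lines in 1 additive model of line and hairpin, limma called 0 of 6 members, against 11.9% of all genes. None of the 6 had an unadjusted p under 0.05, where 3788 of 12804 genes tested did. The shared log2 changes ran between -0.29 ± 0.14 for CD74 and HLA-DRA and 0.08 ± 0.07 for HLA-DMB. Of the 6, only CD74 reached an RPKM of 1 in NB4. The other members lay near 0 RPKM there. Without a filter their log2(RPKM + 1) changes in NB4 ran between -0.05 for HLA-DMA and 0.06 for HLA-DRA. Their shared changes thus join the MM6 change to a value held near 0. For them this fit cannot show whether a change was shared. In voom on recovered reads, 1 of 9 members was called, against 14.4% of all genes: HLA-DRA, with a change of -0.59 ± 0.17 and an adjusted p of 0.049. This is not a fall seen in both lines. HLA-DRA reads in NB4 went the other way (25 with shM14 against 5 with shNS), and MM6 alone gave -0.67 ± 0.13 in voom. That call was lost without any 1 of 7 libraries, all but NB4 shM14 replicate 1 (adjusted p 0.050 to 0.15).

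Whether the change differed between lines was tested as the MM6 change minus the NB4 change. Limma called 0 of 6 members, against 2.92% of all genes. At an unadjusted p under 0.05 there were 3 of the 6 (HLA-DRA, CD74 and HLA-DRB1), beside 2511 of 12804 genes tested. In NB4 HLA-DRA and HLA-DRB1 lay near 0 RPKM, and without a filter their log2(RPKM + 1) changes there were 0.06 and 0.0. Their differences between lines, -0.69 and -0.4, thus largely restate their MM6 changes of -0.64 and -0.39. For them this scale cannot show whether the lines responded differently. HLA-DRA came closest, with a difference of -0.69 ± 0.14 (adjusted p = 0.057). It passed with a pseudocount of 0.1 (adjusted p = 0.048), with median-of-ratios scaling (0.031), and without MM6 shM14 replicate 1 (0.046) or replicate 2 (0.021). CD74 differed by 0.60 ± 0.21 (adjusted p = 0.18). Voom on recovered reads called 0 of 9 members in this comparison, against 1.24% of all genes. Under an unadjusted 0.05 there were 3 of the 9, beside 2508 of 15831 genes tested.

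The other class II genes were read in the same way. All 5 that were measured of 10 listed had both MM6 shM14 libraries below both MM6 shNS libraries (25.5% of all genes did). Limma tested 2 of them and called 0, with 1 at an unadjusted p under 0.05 (1779 of 11895 genes tested). Voom tested 5 and called 0, with 2 at that level (2234 of 14764 genes tested). HLA-DRB5, a further DR beta chain, had 8.28 and 9.31 RPKM in MM6 shM14 against 13.6 and 11.2 RPKM in MM6 shNS (log2 change -0.45 ± 0.16, limma, adjusted p = 0.29). Its RPKM cannot be set beside that of HLA-DRB1, since the lengths used were 0.927 and 6.11 times the GENCODE transcripts. Per kilobase of transcript HLA-DRB5 was the scarcer in MM6 shNS, at 11.5 ± 1.6 against 58.4 ± 2.1 for HLA-DRB1. HLA-DRB6, a DR beta pseudogene, had 1.77 and 2.74 RPKM in MM6 shM14 against 2.89 and 3.40 RPKM in MM6 shNS. HLA-DQA1, the DQ alpha chain and partner of HLA-DQB1, had 4 and 4 reads in MM6 shM14 against 10 and 13 reads in MM6 shNS, the opposite direction to HLA-DQB1.

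HLA-DOA and HLA-DOB form HLA-DO, which restrains HLA-DM. HLA-DOA had 20 and 25 reads in MM6 shM14 against 39 and 41 reads in MM6 shNS. HLA-DOB had 0.404 and 0.485 RPKM in MM6 shM14 against 0.642 and 0.872 RPKM in MM6 shNS. Unlike every one of the 9 genes, HLA-DOB was higher in NB4, with 1.05 and 1.39 RPKM in NB4 shM14 against 1.92 and 1.83 RPKM in NB4 shNS. It fell in NB4 by 0.38 ± 0.08 on the log2 scale (limma, adjusted p = 0.019), a call lost without NB4 shNS replicate 1 (0.074), NB4 shNS replicate 2 (0.055) or NB4 shM14 replicate 1 (0.058), or with all 8 libraries in 1 model (0.059). Of its 50-base windows 36.5% lie in an overlapping gene.

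Of the 7 proteins that bind class II promoters, 3 rose, 1 fell and 3 did not pass in NB4, where 47.4% of genes were called, and 0 of 7 passed in MM6, where 0.0757% were. For this list and the 5 that follow, voom on recovered reads called 0 members in MM6 with 1 exception, CD80. At an unadjusted p under 0.05 in MM6, 2 of the 7 promoter-binding proteins passed (limma). Over all genes 1779 of 11895 did, which also stands beside the unadjusted MM6 counts of the lists below. The list's median log2 change was 0.10 in NB4 and -0.10 in MM6, beside -0.01 and -0.03 over all genes. In NB4, NFYB and NFYC, subunits of the Y box factor NF-Y, had changes of 0.43 ± 0.07 (limma, adjusted p = 0.0066) and 0.20 ± 0.05 (0.025), and CREB1, which binds beside the X box, had 0.22 ± 0.06 (0.031). With all 8 libraries in 1 model, where 15.3% of genes were called in NB4, the calls of NFYB (0.096), NFYC (0.31) and CREB1 (0.19) were lost. The NFYC and CREB1 calls were also lost without NB4 shNS replicate 2 (0.064 and 0.069) or either NB4 shM14 library (0.095 to 0.14). NFYA, the NF-Y subunit that contacts the CCAAT sequence, had 8.23 and 8.14 RPKM in NB4 shM14 against 10.3 and 9.52 RPKM in NB4 shNS, and 9.03 and 10.7 RPKM in MM6 shM14 against 14 and 14.8 RPKM in MM6 shNS. It fell in the model common to both lines by 0.38 ± 0.09 (adjusted p = 0.027), a call lost without any 1 of 5 libraries (adjusted p 0.057 to 0.081): NB4 shNS replicate 1, both NB4 shM14 and both MM6 shNS libraries. RFX5, the DNA-binding subunit of the X box factor, had 26.9 and 26.9 RPKM in MM6 shM14 against 37.4 and 34.4 RPKM in MM6 shNS (adjusted p = 0.26).

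Of the 10 genes that induce CIITA or carry the interferon-gamma signal, 4 rose, 4 fell and 2 did not pass in NB4 (47.4% of all genes called), and 0 of 10 passed in MM6 (0.0757% of all genes called). In MM6 3 of the 10 had an unadjusted p under 0.05 (limma), beside 1779 of 11895 genes tested. IFNGR2, a chain of the interferon-gamma receptor, rose in the common model by 0.70 ± 0.11 (limma, adjusted p = 0.0088), with 79.6 and 61.7 RPKM in MM6 shM14 against 36.8 and 37.0 RPKM in MM6 shNS. IRF1, an interferon-induced transcription factor that acts on CIITA, had 9.07 and 10.1 RPKM in NB4 shM14 against 14.5 and 14.4 RPKM in NB4 shNS.

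Of the 10 listed repressors and coactivators of CIITA, 9 were tested; 4 rose, 1 fell and 4 did not pass in NB4, a share near the 47.4% called over all genes, and 0 of 9 passed in MM6 (0.0757% of all genes called; 1 of the 9 at an unadjusted p under 0.05). EP300, a histone acetyltransferase, rose by 0.32 ± 0.05 in NB4 (limma, adjusted p = 0.0056), and CARM1, an arginine methyltransferase, fell by 0.27 ± 0.05 (0.013), lost without NB4 shM14 replicate 1 (0.081) or with all 8 libraries in 1 model (0.19). SOCS1, an inhibitor of cytokine receptor signalling, had 14.2 and 15.7 RPKM in MM6 shM14 against 25.4 and 31.4 RPKM in MM6 shNS.

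Of the 10 listed genes for peptide loading and endosomal proteolysis, 9 were measured. In NB4 4 of 7 tested rose and 0 fell, where 47.4% of all genes were called. In MM6 0 of 9 passed, where 0.0757% of all genes were called. At an unadjusted p under 0.05 there were 5 of the 9, beside 1779 of 11895 genes tested. In the common model 3 of 9 rose and 0 fell, where 11.9% of all genes were called. The list's median log2 change was 0.32 in NB4 and 0.65 in MM6, beside -0.01 and -0.03 over all genes. CTSD, an aspartic protease, had 789 and 384 RPKM in MM6 shM14 against 245 and 182 RPKM in MM6 shNS, and 64.5 and 63.7 RPKM in NB4 shM14 against 32 and 34.8 RPKM in NB4 shNS. It rose in the common model by 1.15 ± 0.22 (adjusted p = 0.016; 0.052 without NB4 shNS replicate 1). CTSZ rose there by 0.57 ± 0.08 (0.0055). CTSB rose by 0.51 ± 0.11 (0.025), a call lost without any 1 of the 4 NB4 or the 2 MM6 shNS libraries (0.052 to 0.063). The summed RPKM of the monocytic markers was also higher with shM14 in both lines, as given above, and the part of these markers was not tested.

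Of the 7 measured genes of class II surface turnover, 1 rose, 1 fell and 4 of the 6 tested did not pass in NB4 (47.4% of all genes called), and 0 of 6 passed in MM6 (0.0757% of all genes called; 2 of the 6 at an unadjusted p under 0.05). CD9, a tetraspanin that associates with class II, had 8.72 and 8.01 RPKM in MM6 shM14 against 4.06 and 2.98 RPKM in MM6 shNS, and 25.0 and 23.9 RPKM in NB4 shM14 against 36.6 and 33.5 RPKM in NB4 shNS. MARCH1, a ubiquitin ligase that removes class II from the surface, had 1.36 and 2.01 RPKM in MM6 shM14 and 1.36 and 1.5 RPKM in MM6 shNS.

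Of the 10 measured genes of professional antigen-presenting cells, 3 rose, 1 fell and 1 did not pass among the 5 tested in NB4 (47.4% of all genes called). In MM6 0 of 7 passed (0.0757% of all genes called). At an unadjusted p under 0.05 there were 5 of the 7, beside 1779 of 11895 genes tested. In the common model 3 of 7 rose and 1 fell, where 11.9% of all genes were called. CD86, a costimulatory ligand for CD28, had 19.3 and 14.8 RPKM in MM6 shM14 against 7.28 and 7.45 RPKM in MM6 shNS, and 3.23 and 3.24 RPKM in NB4 shM14 against 0.716 and 0.546 RPKM in NB4 shNS. It rose in the common model by 1.24 ± 0.10 (limma, adjusted p = 0.0015). CD80, the other CD28 ligand, had 4.53 and 2.71 RPKM in MM6 shM14 against 0.426 and 0.487 RPKM in MM6 shNS and rose in the common model by 1.11 ± 0.22 (0.019; 0.051 without NB4 shM14 replicate 1). In MM6 alone CD80 rose in voom on recovered reads (2.94 ± 0.40, adjusted p = 0.042) and did not pass in limma on RPKM (1.64 ± 0.22, adjusted p = 0.078). FLT3, a receptor of dendritic cell precursors, fell in the common model by 0.64 ± 0.08 (limma, adjusted p = 0.0038). In MM6, then, both costimulatory ligands were higher with shM14 in the libraries where the DR and DP chains were lower.

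**Figure D5:**
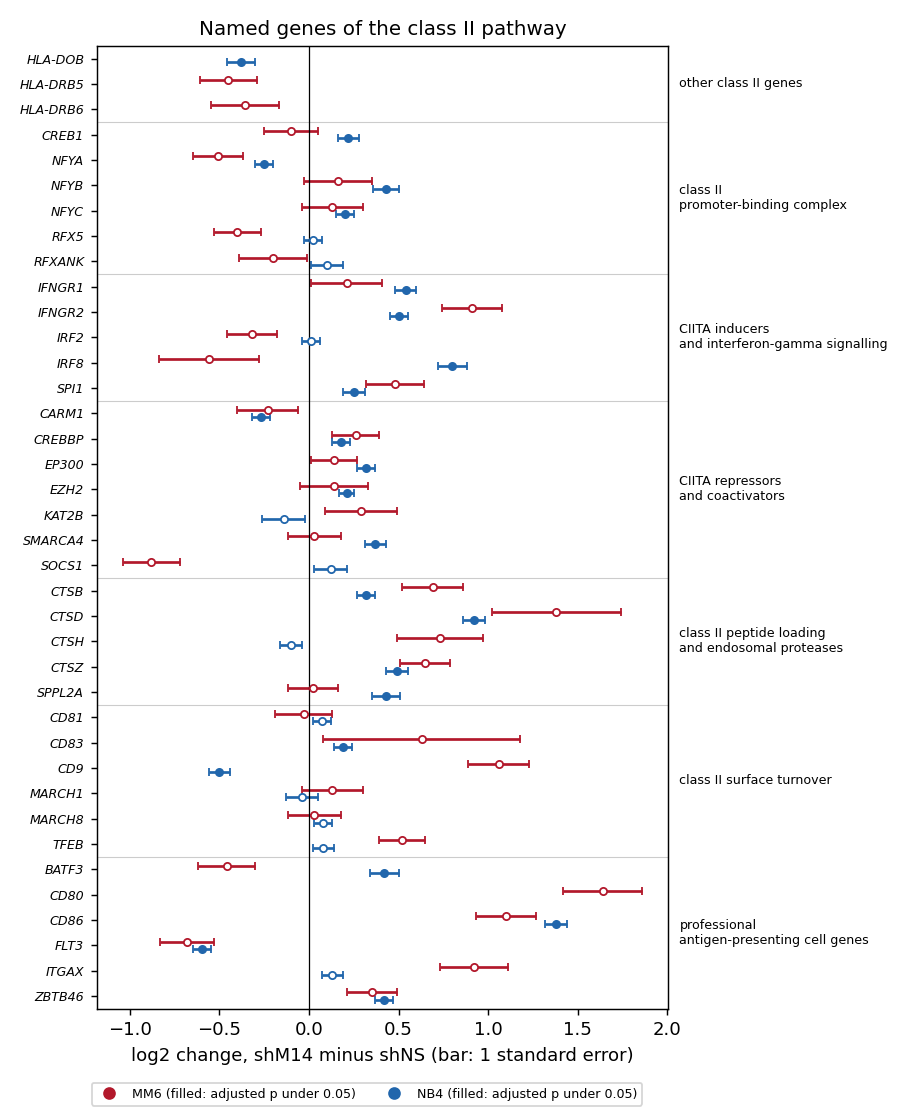
Log2 change, shM14 minus shNS, with 1 standard error for genes named from 7 lists, in MM6 (red, upper point of each gene) and NB4 (blue, lower point), from limma on log2(RPKM + 1). Filled points passed an adjusted p of 0.05; no MM6 point did, and the proteases CTSB, CTSD and CTSZ lie right of 0 in both lines.

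Genes whose pattern was most like that of 3 members were ranked by Pearson's r of log2(RPKM + 1), centred within each line, over 8 libraries and 825 genes whose range was at least 1. For CIITA these were DHCR7 (r = 0.959), FUT7 (0.956) and SNORA25 (0.954). For CD74 they were LOC100996255 (0.98), CD59 (0.916) and ASIC1 (0.909). For HLA-DRA they were TRIM16 (0.978), SNORA25 (0.973) and MB21D1 (0.961). SNORA25 was the one gene named for both CIITA and HLA-DRA, with 3.19 and 5.53 RPKM in MM6 shM14 against 11.4 and 9.88 RPKM in MM6 shNS. These are descriptions across libraries that share the hairpin contrast, line and depth. In NB4 CIITA (0.112 to 0.137 RPKM) and HLA-DRA (0.00953 to 0.0637 RPKM) were nearly flat on this scale, so their r rests almost wholly on the MM6 libraries.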

How the data were processed

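The authors deposited 1 table per cell line. The sources used here do not give the aligner, the counter, the genome build, the test or the strand that was counted. Per library the deposited values are RPKM, a unit worked out from the values. Signal columns hold, per the file headers, group means of scaled counts. A ratio column gives the authors' fold change (shM14 over shNS), and a log2 column its log2, per the file headers. The authors' p-value and its adjusted form are deposited too. RPKM and group means together gave whole reads and the gene length behind each RPKM for every gene; this recovery and the fits were tested on simulated data. 27 genes have no symbol.

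Limma 3.58.1 (R 4.3.3) was fitted to log2(RPKM + 1) in each line alone (2 libraries against 2), over both lines as an additive model and as an interaction, and between the shNS groups of both lines. Genes had to reach an RPKM of 1 in 2 or more libraries of the fit. Tests were two-sided, with Benjamini-Hochberg adjustment over all genes tested and a threshold of 0.05. SE is the moderated standard error. The fit between lines draws on both tables, in which RPKM is scaled per library. Recovered reads were also fitted with voom. Alternatives were a pseudocount of 0.1, other filters, median-of-ratios scaling, a variance trend, the replicate number as a block, 1 model over all 8 libraries and leaving out each library.

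Read ratios have 95% exact binomial intervals. The floor for a group at 0 was 3 reads. Shared windows of 50 bases, the read length, were counted between GENCODE 29 transcripts, and promoters came from RefSeq. Scripts ran in Python 3.11.15 with scipy 1.17.1 (intervals), pandas 2.3.3, numpy 2.4.6 and, for figures, matplotlib 3.10.9. The members and gene lists were chosen with earlier results of these data known. All members are named. From each list up to 4 genes with the smallest p per line are plotted, apart from 1 that is not reported here, and the text gives some of these and all 5 other class II genes; IRF1 was named after its values were seen.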

Additional observations from a re-analysis of the deposited data

Results flagged for a closer look

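HLA-DQB1 had a mean RPKM with shM14 of 1.87 times that with shNS in MM6, with both shM14 libraries above both controls. In NB4 both shM14 libraries were at 0 reads and both shNS libraries at 1 read, which puts them in the other order but is too few reads to give a direction there. The difference between lines did not pass in voom on recovered reads (2.48 ± 0.82 on the log2 scale, adjusted p = 0.19), and HLA-DQB1 was not tested in limma on RPKM. SOCS1 had an MM6 change minus NB4 change of -1.0 ± 0.19 on the log2 scale (limma, adjusted p = 0.047); the call held in 6 of 17 alternatives and was lost without any 1 of 7 libraries, all but MM6 shM14 replicate 2 (adjusted p 0.051 to 0.23). CD9 had a difference of 1.56 ± 0.18 (limma, adjusted p = 0.013); the call held in 13 of 17 alternatives and was lost without any 1 of the 4 NB4 libraries (0.11 to 0.12).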

How the results depend on the processing

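Over 129 gene results, 1566 values were computed under alternatives: 1394 kept their direction and side of the threshold, 97 lost a call, 56 gained one and 19 changed sign. In MM6 the count of members called was 0 as reported and 1 (HLA-DRA) with all 8 libraries in 1 model, in RPKM and in voom, and in voom was 0 to 1 without single libraries. With the replicate block it was 1 in RPKM (HLA-DRA, adjusted p = 0.027) and 4 in voom (HLA-DRA 0.00029, HLA-DPA1 0.0019, HLA-DRB1 0.012 and HLA-DPB1 0.02), with 11.8% of all genes called in RPKM and 17.6% in voom; deviations of same-numbered libraries correlated at 0.696 in MM6 and 0.11 in NB4, and the labels state no pairing. With the block the count in voom was 3 for the common model (16.6% of all genes). HLA-DRB1, HLA-DPA1 and HLA-DPB1 gained a call there, and HLA-DRA lost its own (0.063). The 3 genes that gained a call had 0 to 3 reads in each NB4 group. Their calls thus rest on MM6 and do not show a change shared by both lines. For the line difference the count with the block in voom was 2 (HLA-DRA and CD74, 0.047 each, with 10.3% of all genes called). In RPKM it was 1 for the line difference (HLA-DRA, 0.038; 8.93% of all genes). In NB4 it was 0 with a filter of 5 RPKM (CD74 not tested), 0 in voom with all 8 libraries, and 0 to 1 without single libraries. In the common model it was 1 in voom with either filter, and 0 to 3 in voom without single libraries. The line difference had 1 with a pseudocount of 0.1 (203 of 12804 genes called) or median-of-ratios scaling (469 of 12804). Its count also moved without single libraries. Between controls the count was 9 without a filter (10050 of 16722 genes called) and 9 in voom (68.3% of all genes). It was 8 in log2(RPKM + 1) with at least 10 reads (10017 of 15286) and 3 with a filter of 5 RPKM (6574 of 9039). Of the 9, 6 reached 10 reads through MM6 shNS alone, which fixed their direction in advance. The count also moved without single libraries, since fewer members were then tested. Signs turned, none with a call, for CD74 in MM6 (-0.13 to 0.14 without single libraries), for the line difference of HLA-DMA (0.19 with a pseudocount of 0.1, 0.02 with median-of-ratios scaling, 0.40 in voom with either filter, -0.05 to 0.04 without single libraries) and of HLA-DMB (-0.92 in voom with either filter; within voom -1.93 to 0.09 without single libraries), and in MM6 without single libraries for CD83 (-0.19 to 1.44), MARCH1 (-0.04 to 0.31), NFYB (-0.03 to 0.36) and RFXANK (-0.40 to 0.01). Where no cause is given it was not tested. The planned edgeR test was not run; voom was the test used on recovered reads. The alternatives in voom with at least 10 reads, and log2(RPKM + 1) with that filter, were chosen after seeing the data. Depth limits 6 of the 9 genes in NB4, which had fewer than 6 reads in the shNS group.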
